A study of Mus musculus with 55 samples.

Results

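Il1a, Il1b, Il1rn and Il18, the cytokine genes of the interleukin-1 (IL-1) family, were followed by ChIP-seq of H3K27ac and of p300 in mouse macrophages given lipopolysaccharide (LPS), 3'-sialyllactose (3'SL) or both. A region belonged to a gene when the deposited ATAC-seq region tables named that gene as its nearest and its centre lay within 100 kb of the annotated transcription start site. This gave 20 of 97113 regions, namely 6 for Il1a, 8 for Il1b, 5 for Il1rn and 1 for Il18, and 4 of 18490 genes. The name is the gene with the nearest start site and does not show which gene a region acts on. Bone marrow-derived macrophages of C57BL/6 mice were grown in L-cell conditioned medium, a source of M-CSF, serum-starved overnight and treated with 3'SL (100 µg/ml) plus LPS (10 ng/ml), with LPS alone, with 3'SL alone, or with PBS as the vehicle, each for 2 h or 6 h. Serum starvation was common to all groups, vehicle included. H3K27ac libraries were made from formaldehyde-fixed cells, and p300 libraries from cells also cross-linked with disuccinimidyl glutarate. Every group entered the tests with 2 libraries per mark, except the vehicle group, which entered with 1 at 6 h for H3K27ac and 1 at each time for p300. These single vehicle libraries are all replicate 2, while the LPS and 3'SL groups hold both numbers. The replicate 1 vehicle libraries of these 3 groups are not analysed here, because no column of the region tables was matched to them. The labels do not say whether replicates came from separate mice, so p-values measure only the spread between libraries. The replicate 1 H3K27ac libraries titled 2 h carry a treatment label of 1 h, and 1 library titled 3'SL with LPS at 2 h carries a vehicle label; the titles were followed. The column used as the H3K27ac vehicle of 2 h, replicate 1, was matched to its sample by name alone.

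Interleukin-1 alpha (Il1a) and interleukin-1 beta (Il1b) are inflammatory cytokines that act through the same receptor, and the product of Il1rn is the antagonist that occupies this receptor without signalling. Interleukin-18 (Il18) acts through a receptor of its own. Interleukin-1 beta and interleukin-18 are made as precursors that caspase-1 cuts in the inflammasome. In macrophages, LPS is sensed by Toll-like receptor 4 and is a classical inducer of Il1a and Il1b, whereas the Il18 precursor is present in resting cells. H3K27ac marks active enhancers and promoters, and p300 is an acetyltransferase that deposits it.

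The 6 windows below are examples, and other called regions, such as that 9287 bp upstream of Il1b, are not printed. Printed are the pair of Il1a regions and the Il1b region (9832 bp upstream) with the most p300 at 2 h of LPS. Also printed are the Il1b regions with the largest fitted p300 change (39353 bp upstream) and with the most p300 in vehicle cells (2450 bp upstream). The last window is the Il1rn region with a match to an NF-kB motif. All 6 windows are given 5′ to 3′ on the plus strand of GRCm38 (mm10), read from the RefSeq genome, with matches to the searched motifs in capitals. All of them lie on chromosome 2, and Il1a and Il1b are transcribed from the minus strand. Distances for Il1rn refer to the nearest of several annotated start sites.
Il1a, 20811 bp upstream, intergenic, chr2:129330683-129330883, with a PU.1 match and then an NF-kB match: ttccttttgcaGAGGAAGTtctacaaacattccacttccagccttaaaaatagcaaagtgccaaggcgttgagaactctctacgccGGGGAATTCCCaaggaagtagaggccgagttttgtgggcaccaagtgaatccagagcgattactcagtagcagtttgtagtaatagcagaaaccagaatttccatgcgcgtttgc
Il1a, 10357 bp upstream, intergenic, chr2:129320229-129320429, with an AP-1 match: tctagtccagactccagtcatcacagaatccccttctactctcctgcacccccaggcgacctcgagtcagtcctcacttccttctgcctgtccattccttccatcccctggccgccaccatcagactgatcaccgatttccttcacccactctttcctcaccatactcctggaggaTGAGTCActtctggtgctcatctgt
Il1b, 39353 bp upstream, intergenic, chr2:129410392-129410592, with no match: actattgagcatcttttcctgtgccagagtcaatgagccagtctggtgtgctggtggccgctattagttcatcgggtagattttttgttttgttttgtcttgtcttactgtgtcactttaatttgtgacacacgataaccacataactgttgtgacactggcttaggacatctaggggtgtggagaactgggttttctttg
Il1b, 9832 bp upstream, intergenic, chr2:129380871-129381071, with an NF-kB match and then a PU.1 match: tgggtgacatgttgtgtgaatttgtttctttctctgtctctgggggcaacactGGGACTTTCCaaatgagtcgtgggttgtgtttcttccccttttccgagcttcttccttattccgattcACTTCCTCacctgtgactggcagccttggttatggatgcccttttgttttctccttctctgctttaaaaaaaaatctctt
Il1b, 2450 bp upstream, in an intron of a non-coding transcript, chr2:129373489-129373689, with a PU.1 match and then an AP-1 match: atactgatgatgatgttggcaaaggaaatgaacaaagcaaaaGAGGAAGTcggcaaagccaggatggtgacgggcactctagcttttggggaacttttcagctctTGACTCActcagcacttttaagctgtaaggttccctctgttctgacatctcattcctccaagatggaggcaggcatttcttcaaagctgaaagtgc
Il1rn, 1340 bp upstream, intergenic, chr2:24335420-24335620, with an NF-kB match: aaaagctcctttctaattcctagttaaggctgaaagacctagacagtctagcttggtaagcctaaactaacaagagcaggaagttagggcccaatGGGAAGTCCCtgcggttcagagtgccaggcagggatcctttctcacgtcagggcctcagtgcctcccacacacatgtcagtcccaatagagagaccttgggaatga

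Values are normalised tags, counted in windows of 1000 bp for H3K27ac and 200 bp for p300. Tags were divided by the library's total over the tested regions times its TMM factor, and put on 1 common scale per mark. Relative to the deposited tags per 10000000 mapped tags, this multiplied libraries by 0.853 to 1.23 for H3K27ac and by 0.566 to 2.93 for p300. Log2 changes are of normalised tags plus 1, with the standard error (SE) of the fit, and a change was called at a Benjamini-Hochberg adjusted p under 0.05 over all regions or all genes tested. Depth ran from 4.20 to 39.6 M tags over the 15 H3K27ac libraries and from 3.20 to 18.1 M tags over the 14 p300 libraries, and the shallowest p300 library was the vehicle of 2 h. The share of tags inside ATAC windows was 53.9 to 64.8% in replicate 1 and 72.4 to 79.3% in replicate 2 for H3K27ac, and 6.12 to 9.42% and 20.1 to 27.5% for p300. Libraries thus differed by replicate number in both marks. Changes are also given within each number where its vehicle was analysed, and calls are from fits without a replicate block unless a block is named. Whether the libraries of compared groups overlapped was read for the members only and was not counted over all genes or regions. All 10 macrophage markers had signal, with a sum of 13880 to 21157 for H3K27ac and 3917 to 5645 for p300. For H3K27ac, 5 fibroblast markers, of which 4 had a region, summed to 4.06 to 36.2. The sums were 85.5 to 185 for 5 neutrophil markers and 229 to 626 for 5 epithelial cell markers. Of the 5 T cell and 5 B cell markers, only 2 each had a region, and these summed to 184 to 626 and 612 to 1638. The other 3 of each list had no region and were not measured. In such bulk samples, fewer cells with a mark and less of it per cell cannot be told apart.

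After 2 h of LPS, H3K27ac rose over Il1a and Il1b. Il1b summed over its 8 regions to 1990 and 1836 in the LPS libraries, against 343 and 288 in the PBS libraries. That is a log2 change of 2.60 (SE 0.33), with limma's adjusted p = 0.00272 and within-replicate changes of 2.53 and 2.67. Il1a summed over 6 regions to 761 and 469 with LPS, against 126 and 37.2 with PBS, a log2 change of 3.10 (SE 0.55, limma adjusted p = 0.0113) and of 2.58 and 3.62 within replicates. The receptor antagonist gene Il1rn had 1124 and 745 with LPS, against 356 and 135 with PBS, and its log2 change of 2.05 (SE 0.61) was not called (limma adjusted p = 0.0820). It was called in 4 of 14 alternative settings, DESeq2 among them (adjusted p from 0.00685 to 0.128 over the 14). Il18 had 465 and 298 with LPS, against 116 and 245 with PBS, and was not called either (log2 change 1.14, SE 0.61, limma adjusted p = 0.356). The LPS libraries lay above the PBS libraries at all 4 genes, and the share of all genes so separated was not counted. The Il18 change was 1.99 in replicate 1 and 0.28 in replicate 2. So 2 of 4 members were called higher, where 3.47% of all 16731 genes were, and their median log2 change was 2.33 where that of all genes was 0.09. Il1b was called in each of 14 alternative settings and with any of the 4 libraries left out, but Il1a lost its call when the second PBS library was dropped (log2 change 2.23, limma adjusted p = 0.0837) or the first LPS library (2.72, limma adjusted p = 0.103).

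**Figure D1:**
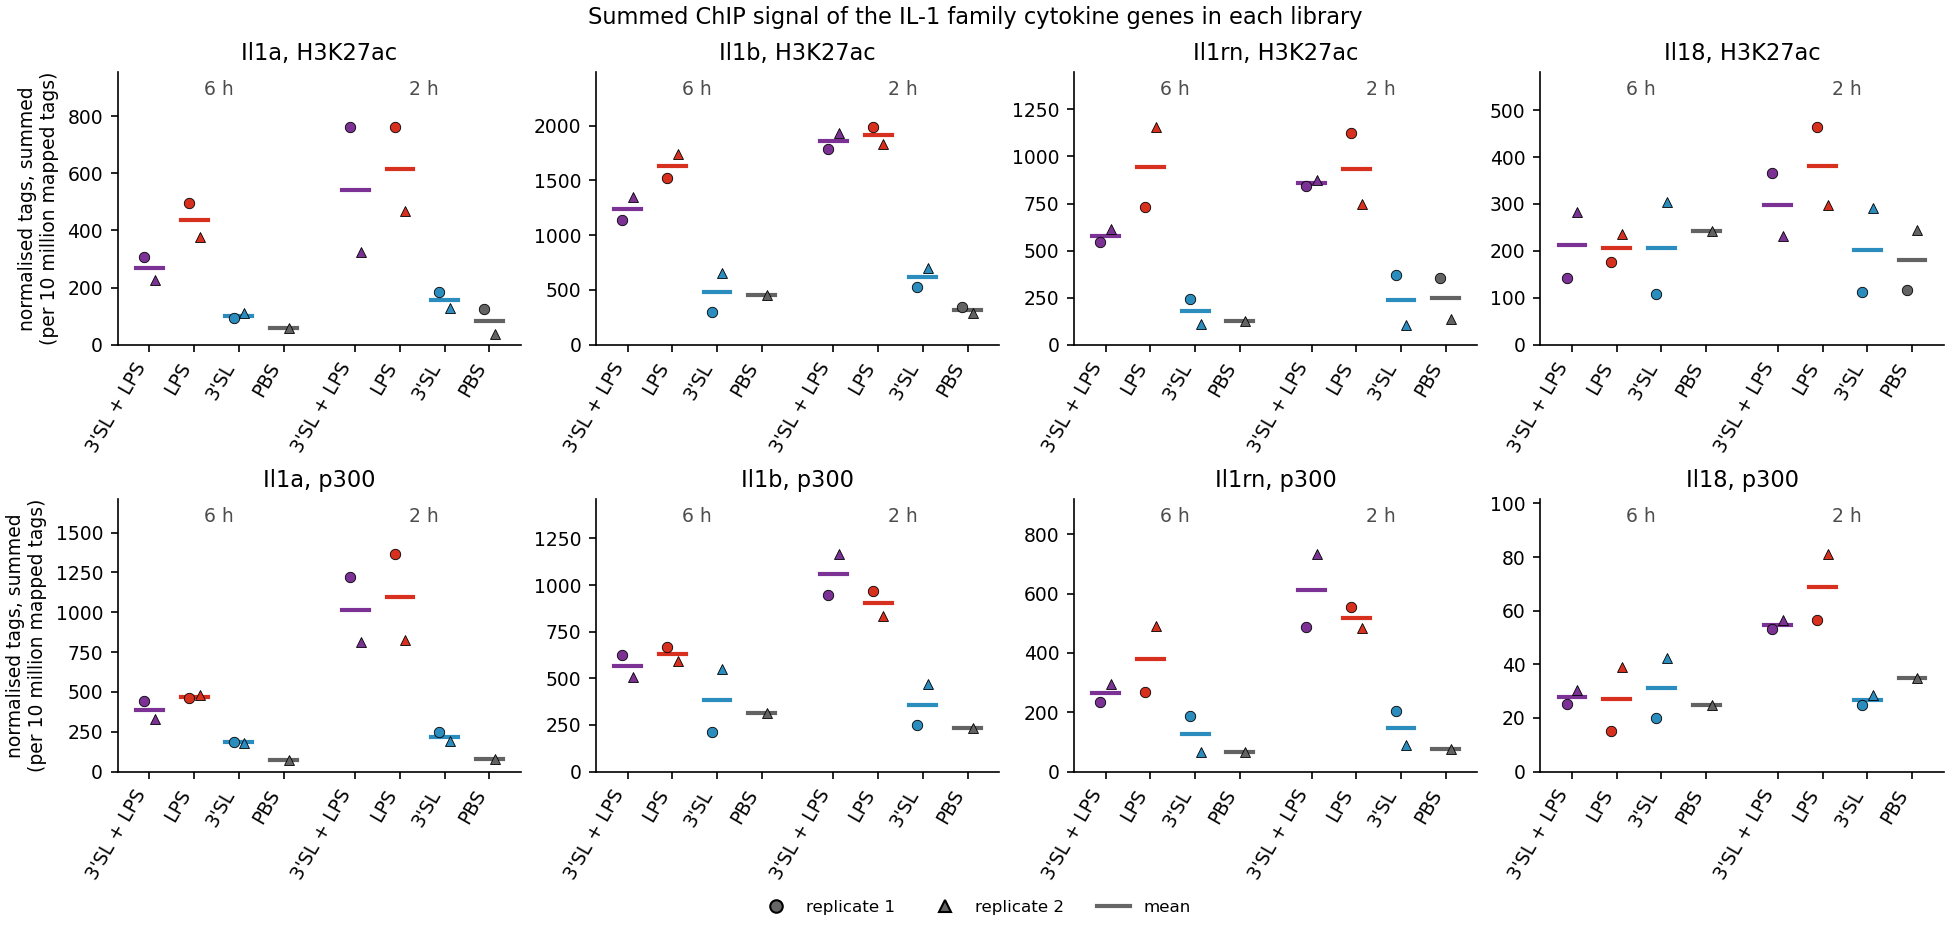
Summed normalised tags of Il1a, Il1b, Il1rn and Il18 in each library, H3K27ac in the upper row and p300 in the lower row, with the 6 h groups left of the 2 h groups. Circles are replicate 1, triangles replicate 2 and bars group means; libraries with LPS stand above those without it for Il1a and Il1rn in both marks and for Il1b in H3K27ac, whereas in p300 1 Il1b library with 3'SL alone (550.1) lies above 1 with 3'SL and LPS (504), and Il18 overlaps in both marks.

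At the level of single regions, 18 of the 19 tested members had more H3K27ac with LPS than with PBS at 2 h, and 8 of 19 were called, where 3.08% of 77387 regions were called higher. The share of all regions with more H3K27ac was not counted. The median log2 change was 2.38 over the tested members and 0.01 over all tested regions. The remaining member, an Il1b region 67861 bp upstream with at most 6.16 normalised tags in any library, was too low to test. The leading region was that 9832 bp upstream of Il1b, with 659 and 551 in LPS libraries, against 95.6 and 71.2 in PBS libraries (log2 change 2.85, SE 0.32, limma adjusted p = 0.00215). Its neighbour 9287 bp upstream, whose window shares 455 bases with it, had 600.5 and 545 with LPS, against 108 and 80.5 with PBS (log2 change 2.61, limma adjusted p = 0.00214). These regions together held most of the Il1b signal, a median over libraries of 30.4 and 30.5%. Tags in bases that windows share count in each window, and so more than once in the Il1b sum. The pair at 2450 and 2223 bp upstream, which share 773 bases of window, changed by 2.38 and 2.30 (limma adjusted p = 0.0154 and 0.0270), and the region 39353 bp upstream by 3.17 (limma adjusted p = 0.0410). For Il1a, the region 28392 bp upstream had 195 and 255 with LPS, against 36.2 and 23.7 with PBS (log2 change 2.88, limma adjusted p = 0.00654), and that 6028 bp upstream had 92.5 and 41.7 with LPS, against 12.1 and 0 with PBS (4.13, limma adjusted p = 0.0493). The region nearest the Il1a start site, 3759 bp downstream of it, had 68.7 and 26.3 with LPS, against 18.6 and 4.13 with PBS, and was not called (log2 change 2.12, limma adjusted p = 0.225). For Il1rn, the region over the inner start site had 362 and 246 with LPS, against 97.4 and 39.2 with PBS (log2 change 2.25, limma adjusted p = 0.0309). Its neighbour 1071 bp downstream had 301 and 205 with LPS, against 71.5 and 24.8 with PBS, and was not called (log2 change 2.53, limma adjusted p = 0.0777). Only the Il1rn region 21188 bp upstream was not above 0 (27.2 and 43.9 with LPS, against 47.3 and 27.9 with PBS, log2 change -0.07). Dropping 1 library at a time left 3 calls (first LPS library), 2 (second LPS library), 9 (first PBS library) and 2 (second PBS library). The regions 9832 and 9287 bp upstream of Il1b kept their call in each of these 4 fits.

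**Figure D2:**
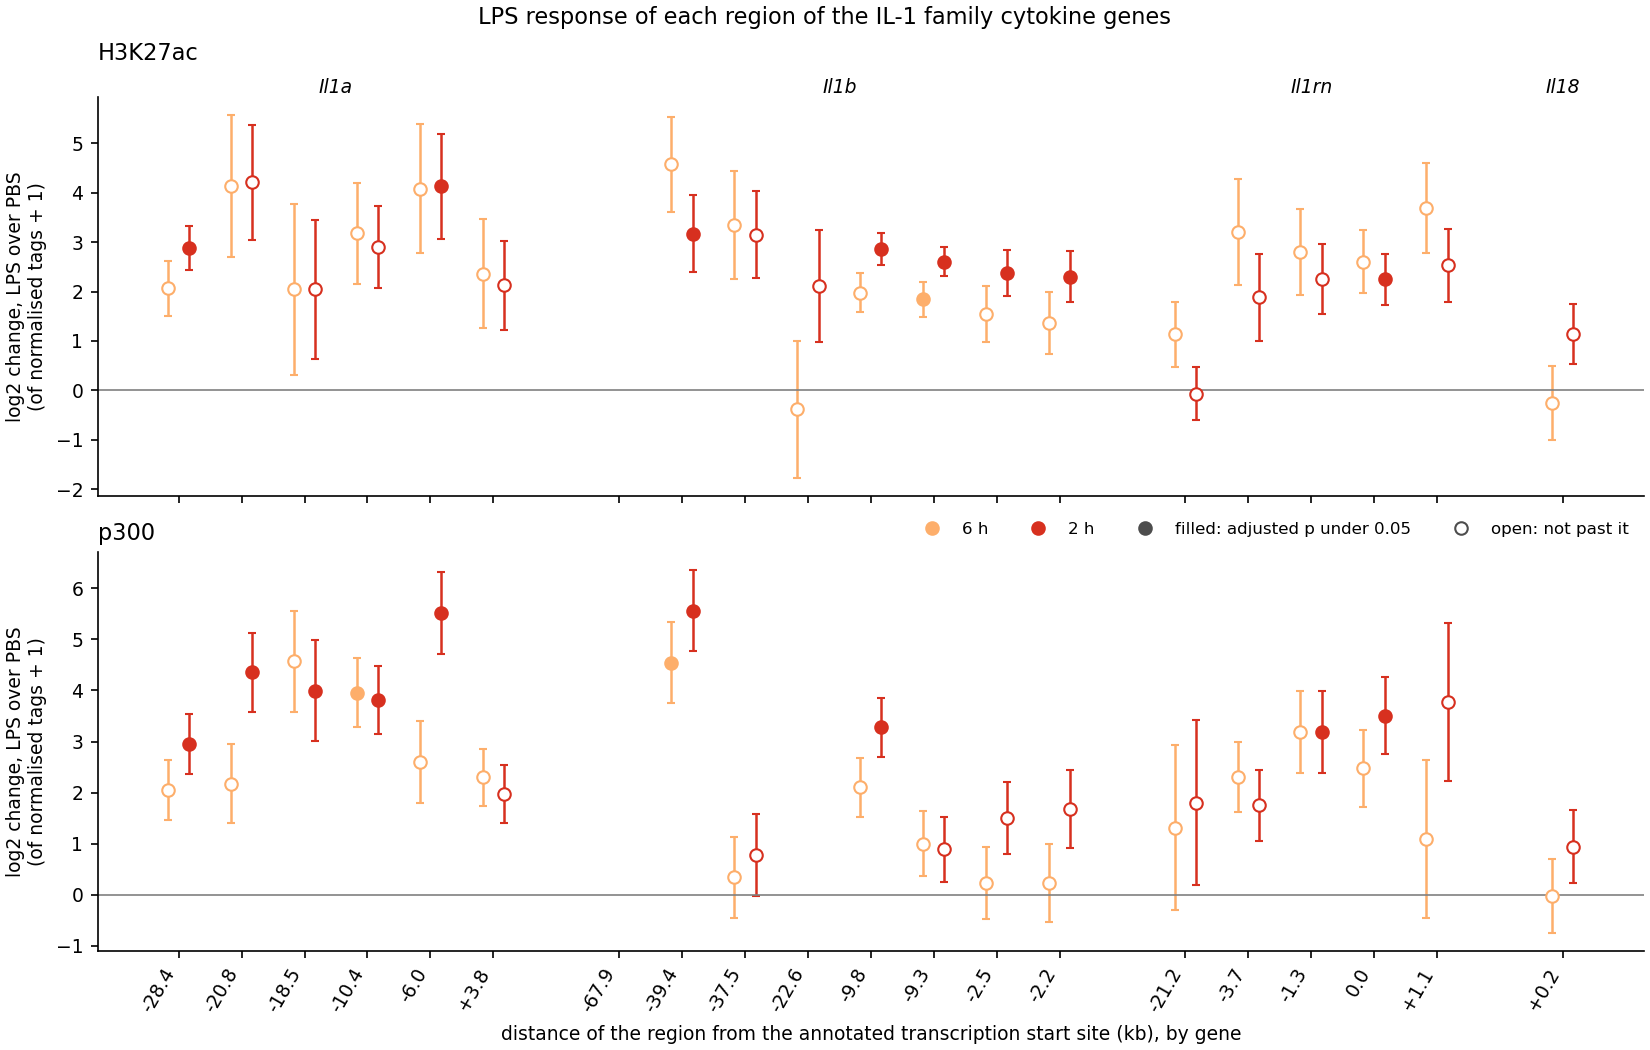
Log2 change of LPS over PBS with its SE for each tested region of the 4 genes, ordered by distance from the start site, for H3K27ac (upper panel) and p300 (lower panel), 6 h left of 2 h. Filled points passed an adjusted p of 0.05; at 2 h these were 8 H3K27ac and 9 p300 regions, and at 6 h 1 and 2.

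Il1a had the largest gene-level p300 change of the 4 at 2 h. Its regions summed to 1368 and 829 with LPS, against 81.9 in the 1 PBS library (log2 change 3.68, SE 0.43, limma adjusted p = 0.00150). Il1rn rose to 554 and 484 with LPS, against 75.8 with PBS (log2 change 2.76, SE 0.63, limma adjusted p = 0.0458). Il1b had 971 and 833 with LPS, against 233 with PBS, which was not called (log2 change 1.94, SE 0.53, limma adjusted p = 0.0922). It was called in 4 of 13 alternative settings, DESeq2 among them (adjusted p from 0.00107 to 0.999 over the 13). Il18 had 56.4 and 81.3 with LPS, against 34.8 with PBS (log2 change 0.94, SE 0.66, limma adjusted p = 0.624). So 2 of 4 members were called higher for p300, where 1.54% of 15946 genes were called higher, and the median of the members was 2.35 and that of all genes 0.11. Within replicate 2, which holds the vehicle library, the log2 changes were 3.32 for Il1a, 2.66 for Il1rn and 1.83 for Il1b. Whether Il1a and Il1b differed in their p300 response was not tested. Il1a kept its call in 12 of 13 alternative settings and without either LPS library, whereas Il1rn lost it when the first (limma adjusted p = 0.179) or the second LPS library (limma adjusted p = 0.135) was dropped. With the authors' own scaling, which shifts the median log2 change against vehicle over all p300 regions and genes by -0.98 to -0.68, no p300 call of the 4 genes or of their regions remained.

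All 18 tested p300 regions had more signal in LPS libraries than in the PBS library at 2 h, and 9 of 18 were called, where 2.15% of 62225 regions were called higher. The share of all regions above that library was not counted. The median log2 change was 3.07 over the tested members and 0.11 over all tested regions. By edgeR's quasi-likelihood test on the recovered tags, 0 of 18 were called at 2 h, beside 79 of all 62225 regions. DESeq2 called 8 of 18, beside 953 in all, and 14 of 18 had an unadjusted limma p under 0.05, beside 9097 in all. The test also calls sparse regions in comparisons with this shallow vehicle library, so its tags are given beside the calls. The Il1a region 20811 bp upstream had the most p300 of all members, 550.4 and 285 with LPS, against 18.4 (9 tags) with PBS (log2 change 4.35, limma adjusted p = 0.00639). The region 10357 bp upstream had 423 and 214 with LPS, against 20.5 (10 tags) with PBS (log2 change 3.81, limma adjusted p = 0.00607). At 6028 bp upstream, 63.1 and 31.4 stood against 0 tags with PBS, which is at least 7.77-fold higher with the tags of both LPS libraries pooled over their summed depth, taking 3 tags as the floor for the vehicle (limma adjusted p = 0.00170). The Il1b region 39353 bp upstream had 161 and 127 with LPS, against 2.05 (1 tag) with PBS, a ratio of pooled tags of 70.6 with a 95% exact counting interval of 12.5 to 2801 (limma adjusted p = 0.00146). The Il1a region 18492 bp upstream had 68.5 and 32.8 with LPS, against 2.05 (1 tag) with PBS, a ratio of pooled tags of 25.0 with a 95% exact counting interval of 4.35 to 1000.1 (limma adjusted p = 0.0434). The remaining calls were the Il1a region 28392 bp upstream, the Il1b region 9832 bp upstream and the Il1rn regions 1340 bp upstream and over the inner start site, with log2 changes from 2.95 to 3.50 and 6 to 12 vehicle tags. Not called were the Il1a region 3759 bp downstream, with 75.2 and 59.9 with LPS, against 16.4 (8 tags) with PBS (log2 change 1.97, limma adjusted p = 0.0842), and the Il1rn region 3713 bp upstream, with 193 and 123, against 45.1 (22 tags) with PBS (1.75, limma adjusted p = 0.232). Dropping the first LPS library left 2 member calls and dropping the second left 5, and the Il1b region 39353 bp upstream and the Il1a region 6028 bp upstream were called in both fits.

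The regions nearest Il1b already held p300 without LPS. At 2450 bp upstream, p300 was 227 and 194 with LPS at 2 h, against 73.7 (36 tags) with PBS, and at 2223 bp upstream it was 192 and 181, against 57.3 (28 tags). At 6 h the same regions had 147 and 171, against 135, and 125 and 106, against 98.2. The log2 changes at 2450 bp upstream were 1.50 at 2 h and 0.23 at 6 h, and those at 2223 bp upstream 1.68 and 0.23. None of these 4 changes was called (limma adjusted p from 0.316 to 0.960). H3K27ac at these regions was called at 2 h, as above.

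**Figure D3:**
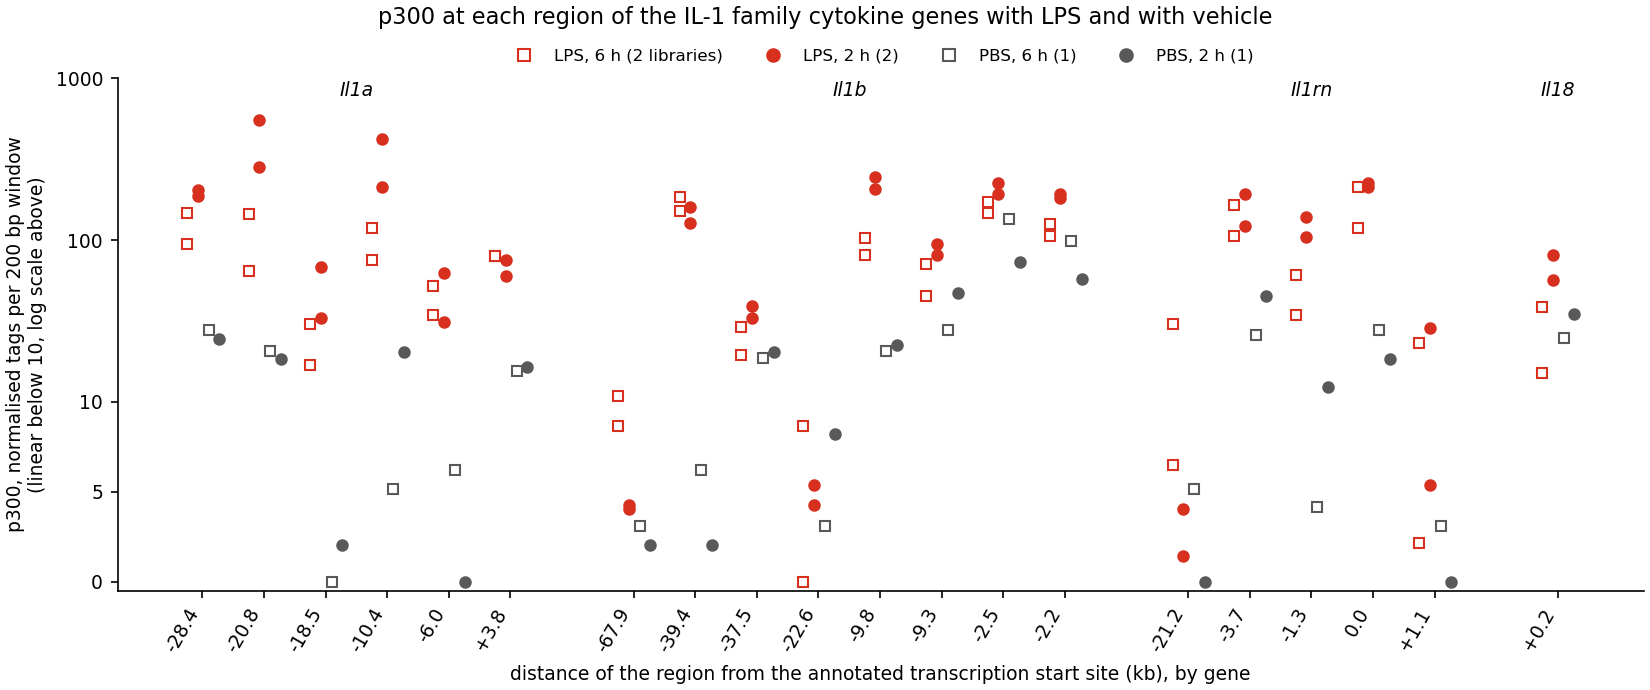
p300 in normalised tags per 200 bp window at each of the 20 regions, with LPS (red) left of PBS (grey), squares for 6 h and circles for 2 h, on an axis that is linear below 10 and logarithmic above. The vehicle libraries stand at 57.3 to 135 at the regions 2450 and 2223 bp upstream of Il1b, and at no more than 6 tags at those 39353 bp upstream of Il1b and 6028 bp upstream of Il1a.

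After 6 h of LPS, Il1a was the member whose p300 was called. Its p300 sum was 461 and 481 with LPS, against 75.5 in the PBS library (log2 change 2.63, SE 0.43, limma adjusted p = 0.0313). The call did not survive dropping the first (limma adjusted p = 0.174) or the second LPS library (limma adjusted p = 0.210). Il1rn had 268 and 492 with LPS, against 66.2 with PBS, and Il1b 668 and 595, against 313, with log2 changes of 2.44 and 1.01 that were not called (limma adjusted p = 0.211 and 0.661). Il18 had 15.1 and 38.9 with LPS, against 24.8 with PBS, and the groups overlapped. So 1 of 4 members was called for p300, where 0.125% of all genes were called higher, and 2 of 18 regions, where 0.4% of all regions were. These were the Il1a region 10357 bp upstream, with 75.7 and 119 with LPS, against 5.17 (5 tags) with PBS (log2 change 3.96, limma adjusted p = 0.0149), and the Il1b region 39353 bp upstream, with 184 and 152, against 6 tags with PBS (log2 change 4.54, limma adjusted p = 0.0178). Both lost their call when either LPS library was dropped, with a limma adjusted p from 0.0731 to 0.126. edgeR called 0 of 4 genes and 0 of 18 regions, beside 2 of 15946 genes and 0 of 62225 regions in all. DESeq2 called 2 of 4 and 7 of 18, beside 149 genes and 580 regions in all. Within replicate 2 the log2 changes of the p300 sums were 2.66 for Il1a, 2.88 for Il1rn, 0.92 for Il1b and 0.63 for Il18.

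For H3K27ac at 6 h, 0 of 4 members were called by limma, where 0.4% of all genes were called higher. An unadjusted limma p under 0.05 was found for 3 of 4, and for 1982 of all 16731 genes. edgeR called 0 of 4, beside 67 genes in all, and DESeq2 3 of 4, beside 564. Il1b had 1525 and 1745 with LPS, against 456 in the PBS library (log2 change 1.84, SE 0.40, limma adjusted p = 0.0772). Il1a had 497 and 375, against 59.9 (2.83, SE 0.68, limma adjusted p = 0.109), and Il1rn 731 and 1158, against 127 (2.85, SE 0.75, limma adjusted p = 0.134). All 6 of these LPS values lay above the vehicle, while Il18 had 176 and 236 with LPS, against 243 with PBS (log2 change -0.26, limma adjusted p = 0.938). Within replicate 2, which holds the vehicle library, the changes were 1.93 for Il1b, 2.63 for Il1a, 3.18 for Il1rn and -0.05 for Il18. Among regions, 1 of 19 was called, where 0.544% of all regions were called higher. It was the Il1b region 9287 bp upstream (480.5 and 528 with LPS, against 140 with PBS, log2 change 1.84, limma adjusted p = 0.0473), and dropping either LPS library raised its limma adjusted p to 0.142 (first) or 0.233 (second). With the replicate number as a block, limma called 15 member regions and 3 member genes, counts given here without the share of all regions or genes.

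Between 6 h and 2 h of LPS, limma without a replicate block called no member gene or region in either mark, where 0% of all regions and 0% of all genes were called. DESeq2 and edgeR without the block called no member gene or region either. For H3K27ac, 0 of 4 genes and 0 of 19 regions had an unadjusted p under 0.05, and for p300 2 of 4 genes and 4 of 18 regions had one. Among all features these were 1180 of 16731 genes and 4370 of 77387 regions for H3K27ac. For p300 they were 682 of 15946 genes and 3126 of 62225 regions. The p300 sum of Il1a was 461 and 481 at 6 h, against 1368 and 829 at 2 h, a log2 change of -1.18 (SE 0.35). That of Il18 was 15.1 and 38.9 at 6 h, against 56.4 and 81.3 at 2 h (-1.44, SE 0.53). The groups did not overlap for either gene, but the limma adjusted p was 1.00 for both without a block. With the replicate number as a block, limma and edgeR each called the p300 change of Il1a. Over the Il1a regions within 10 kb alone the log2 change was 0.13. The distal regions were lower at 6 h: p300 20811 bp upstream was 145 and 64.4 at 6 h, against 550.4 and 285 at 2 h, and 10357 bp upstream 75.7 and 119, against 423 and 214. The p300 of Il1b was 668 and 595 at 6 h, against 971 and 833 at 2 h (log2 change -0.51, SE 0.44). H3K27ac over Il1b was 1525 and 1745 at 6 h, against 1990 and 1836 at 2 h (-0.23, SE 0.33), and over Il1rn the 2 times had means of 944 and 934. The difference between the 6 h and the 2 h response to LPS, each against its own vehicle, was called for 0 of 4 members in either mark (0% of all regions in both marks, 0% of genes for H3K27ac and 0.00627% of genes for p300), with the lowest unadjusted p of a gene at 0.104, and for no member region. An unadjusted p under 0.05 was found for 0 of 19 H3K27ac regions and 1 of 18 p300 regions, beside 1718 of 77387 and 2619 of 62225 in all.

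Without a replicate block, 3'SL alone moved no member past the threshold. At 2 h, H3K27ac over Il1b was 525 and 704 with 3'SL, against 343 and 288 with PBS (log2 change 0.95, SE 0.33, within replicates 0.61 and 1.29), and over Il1a 186 and 127, against 126 and 37.2 (1.15, SE 0.55). The groups were apart at both genes, a separation that was not counted over all genes, and their limma adjusted p was 1.00. Il1rn and Il18 overlapped between 3'SL and PBS. For p300 at 2 h, Il1a had 247 and 192 with 3'SL, against 81.9 with PBS (log2 change 1.40, SE 0.43, limma adjusted p = 0.754), and at 6 h 185 and 180, against 75.5 (1.26, SE 0.43, limma adjusted p = 1.00). These 4 Il1a values all stood above both vehicle libraries, and within replicate 2 the changes were 1.22 at 2 h and 1.24 at 6 h. For p300 over Il1b, 3'SL replicate 1 and replicate 2 lay apart, at 247 and 469 at 2 h, against 233 with PBS, and at 213 and 550.1 at 6 h, against 313. At the region 2450 bp upstream alone, the replicate 2 libraries had 213 and 245 with 3'SL at 2 h and 6 h, against 73.7 and 135 with PBS, and the replicate 1 libraries 82.4 and 78.2. With limma, 0 of 4 genes and 0 of 19 H3K27ac or 18 p300 regions were called at either time. The background was 0% for H3K27ac at both times and for p300 at 6 h, and 0.0145% of regions and 0.0376% of genes for p300 at 2 h. Members at an unadjusted p under 0.05 were 1 gene and 3 regions for H3K27ac at 2 h. In all, 68 of 16731 genes and 445 of 77387 regions stood there. At 6 h there were none, beside 184 genes and 1118 regions in all. For p300 these were 1 gene and 3 regions at 2 h, beside 698 of 15946 genes and 3670 of 62225 regions. At 6 h they were 1 gene and 4 regions, beside 218 genes and 1337 regions. edgeR and DESeq2 without the block called no member.

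Given together with LPS, 3'SL left H3K27ac and p300 over the members without a called difference from LPS alone. At 2 h, Il1b had 1787 and 1932 H3K27ac tags with 3'SL and LPS, against 1990 and 1836 with LPS (log2 change -0.04, SE 0.33). For p300 it had 946 and 1169, against 971 and 833 (0.23, SE 0.44), and Il1a had 1219 and 810, against 1368 and 829 (-0.10, SE 0.35). At 6 h the H3K27ac sums of 3 genes were lower with 3'SL and LPS in both replicates. Il1a had 308 and 228 with both, against 497 and 375 with LPS (log2 change -0.70, SE 0.55, within replicates -0.69 and -0.72). Il1b had 1142 and 1345, against 1525 and 1745 (-0.40, SE 0.33, within replicates -0.42 and -0.38), and Il1rn 543 and 615, against 731 and 1158 (-0.67, SE 0.61, within replicates -0.43 and -0.91). These groups did not overlap, although each limma adjusted p was 1.00, and the share of all genes so separated was not counted. Il18, with 142 and 282, against 176 and 236, overlapped. The median over the 4 members was -0.53 and that of all genes 0.06. p300 at 6 h had a log2 change of -0.30 for Il1a, with 444 and 328, against 461 and 481, and of -0.46 for Il1rn and -0.17 for Il1b, whose groups overlapped. By limma, edgeR and DESeq2, 0 of 4 genes and no member region were called at either time in either mark, where 0% of all genes and regions were, and none had an unadjusted limma p under 0.05.

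The effect of 3'SL with LPS was also set against its effect without LPS. The difference was called for no member gene or region in either mark or time, where 0% of all genes and regions were. Among the member genes, Il1a had the lowest unadjusted p for p300, with differences of -1.50 (SE 0.55, unadjusted p = 0.0177) at 2 h and -1.56 (SE 0.55, unadjusted p = 0.0141) at 6 h, and a limma adjusted p of 1.00 at both. For H3K27ac, 0 of 4 genes at either time had an unadjusted p under 0.05, beside 2 of 19 regions at 2 h and 0 at 6 h, and for p300 these were 2 of 18 regions at 2 h and 3 at 6 h. Among all 77387 H3K27ac regions, 231 had one at 2 h and 734 at 6 h. Among all 62225 p300 regions, 2227 had one at 2 h and 1260 at 6 h. For genes, the counts were 23 and 103 of 16731 in H3K27ac, and 414 and 210 of 15946 in p300. These comparisons share their vehicle and LPS libraries with those above.

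**Figure D4:**
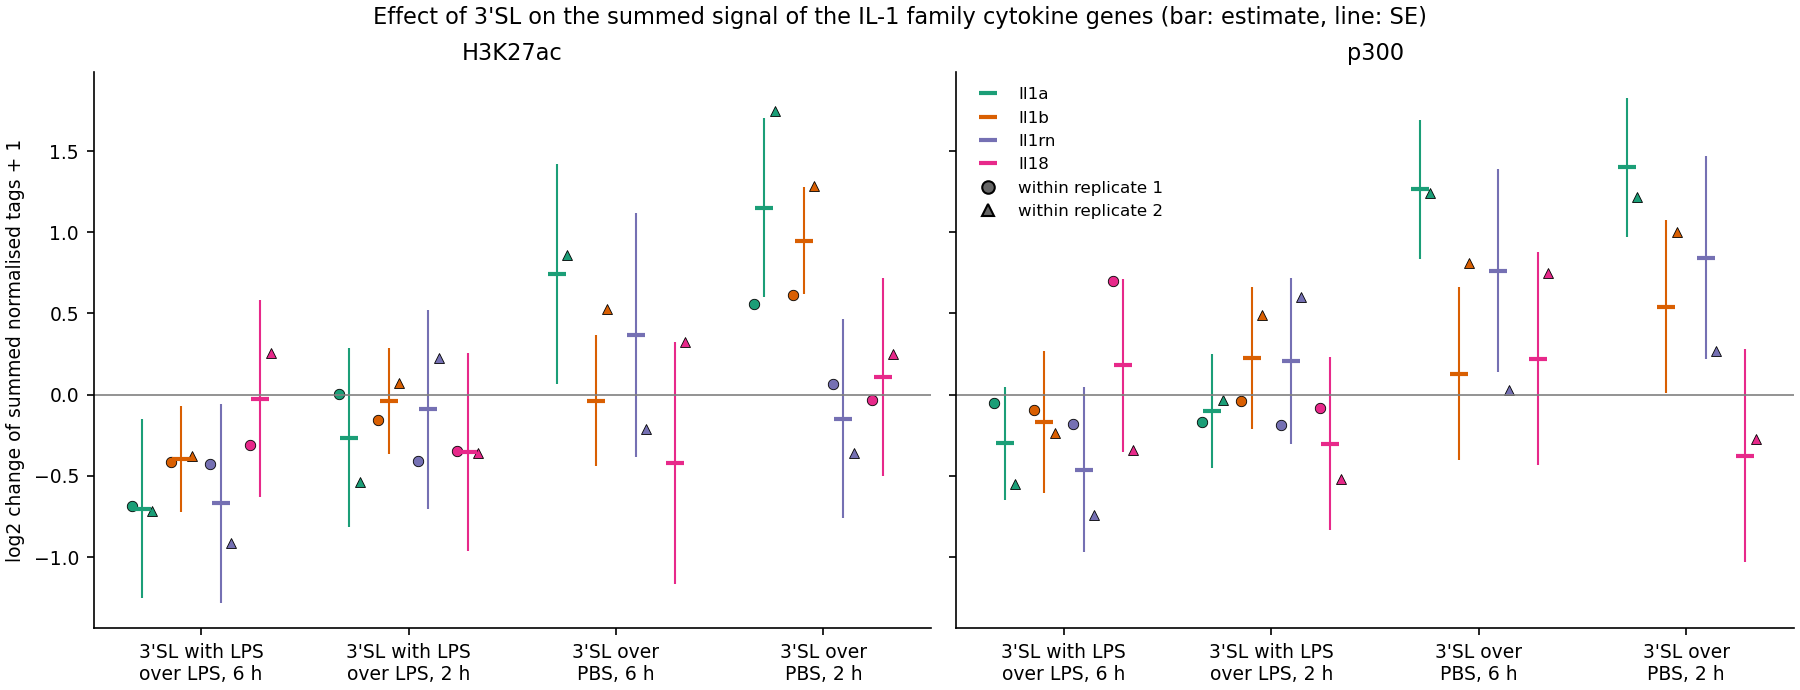
Log2 change of the summed signal with 3'SL for the 4 genes, H3K27ac on the left and p300 on the right, with LPS present left of LPS absent. Bars and lines are the estimate and its SE, circles and triangles the change within replicate 1 and replicate 2; at 6 h with LPS the H3K27ac changes of Il1a, Il1b and Il1rn lie between -0.91 and -0.38 in both replicates, and none was called.

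Ordered by mean H3K27ac, the groups of Il1b ran from PBS of 2 h (316) over PBS of 6 h (456), 3'SL of 6 h (479) and 3'SL of 2 h (615) to 3'SL with LPS of 6 h (1244), LPS of 6 h (libraries at 1525 and 1745), 3'SL with LPS of 2 h (1859) and LPS of 2 h (1913). Among these neighbours the ranges of PBS of 6 h, 3'SL of 6 h and 3'SL of 2 h met, as did those of the last pair. Il1a followed a like order, from 59.9 in PBS of 6 h to 615 in LPS of 2 h, and the ranges of LPS of 6 h, 3'SL with LPS of 2 h and LPS of 2 h met. For Il1rn the 4 groups without LPS met in range at 127 to 246, and 3'SL with LPS of 6 h stood apart from its neighbours at 579. All neighbours of Il18 met, from 180 in PBS of 2 h to 381 in LPS of 2 h. In p300 the order of Il1a ran from 75.5 in PBS of 6 h to 1098 in LPS of 2 h, and only 3'SL with LPS of 2 h and LPS of 2 h met among its neighbours. Input libraries of the H3K27ac table had, in the authors' scaling, at most 84.7 tags per 10000000 over Il1a, 93.1 over Il1b, 61.6 over Il1rn and 21.8 over Il18. The p300 input had 20.6 over Il1a, 59.5 over Il1b, 27.3 over Il1rn and 7.89 over Il18. At the region 2450 bp upstream of Il1b it had 18.8 (31 tags).

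Of the 20 windows, 9 shared at least 1 base with a deposited LXR peak, 10 with an SREBP peak and 12 with a p300 peak, all called by the authors in cells given the LXR agonist GW3965 (1 µM, 18 h). That is 45%, 50% and 60% of the members, beside 22.5%, 22.2% and 34.1% of all ATAC windows. At an overlap of at least 100 bases it was 8, 7 and 9 of 20, or 40%, 35% and 45%, beside 19.8%, 19.2% and 30.4% of all. Neighbouring windows can meet the same peak. Those 2450 and 2223 bp upstream of Il1b met the lists by 112 and 44 bases (LXR), 126 and 17 (SREBP), and 126 and 7 (p300). The single Il18 window, over its first exon, lay under a peak of all 3 lists. The motif searches ran on both strands of all 97113 windows. An NF-kB motif was found in 3 of 20 member windows (15%, and 4.03% of all windows), namely those 20811 bp upstream of Il1a, 9832 bp upstream of Il1b and 1340 bp upstream of Il1rn. The Il1a window holds 2 overlapping matches. The AP-1 motif TGANTCA was in 4 (20%, and 17.2% of all), the PU.1 motif GAGGAAGT in 5 (25%, and 9.69%), the C/EBP motif TTGCNNAA in 2 (10%, and 10.3%) and the interferon response motif GAAANNGAA in 0 (7.83% of all). A match describes letters only. The Il1b region 39353 bp upstream held none of the 5 motifs. Its fitted p300 change at 2 h was the largest of the members (5.56), beside 5.51 at the Il1a region 6028 bp upstream. These changes stood against 1 and 0 vehicle tags, and over the alternative settings they reached at most 6.07 and 8.17.

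Other genes of the pathway, on lists chosen with earlier results of these data known, were counted in the same fits. For H3K27ac at 2 h, 3 of 10 inflammasome and release genes were called higher with LPS and 1 lower, where 3.47% of all genes were called higher and 2.27% lower. Casp4, the caspase that senses cytosolic LPS, had 1999 ± 888 with LPS, against 269 ± 22.3 with PBS (SD, n = 2 each, log2 change 2.82, limma adjusted p = 0.00286). Casp1, which cuts the precursors of interleukin-1 beta and interleukin-18, had 2099 ± 477, against 629 ± 150 (log2 change 1.74, limma adjusted p = 0.00660 with n = 2 each). Mefv, which encodes the inflammasome sensor pyrin, rose (2336 ± 46.9 with LPS, against 1032 ± 253 with PBS), and the sensor gene Nlrp1b fell (589 ± 21.2, against 1833 ± 617). Of 10 genes of IL-1 receptor signalling, 3 were called higher: the adaptor Myd88 (log2 change 1.60), the kinase adaptor Irak2 (1.38) and Tab2 (1.49). Of the 8 receptor genes 0 were called, and 0 at 6 h, and their median log2 change at 2 h was -0.01. Of the 7 other cytokines and antagonists 3 could be tested, and Il18bp, the soluble inhibitor of interleukin-18, was lower at 334 ± 127 with LPS, against 1056 ± 60.8 with PBS (log2 change -1.71, limma adjusted p = 0.0130 with n = 2 each). For p300 at 2 h, Casp4 alone of these lists was called (256 ± 49.7 with LPS, against 32.8 in 1 PBS library, log2 change 2.92, limma adjusted p = 0.0254). None of the 10 macrophage markers was called at 2 h. Of the dendritic cell markers, Ccr7 was called higher for H3K27ac (log2 change 2.63) and Xcr1 for p300 (2.07), with sums over the 5 markers of 1277 to 2017 with LPS, against 599 to 1430 with PBS, for H3K27ac at 2 h. Their part in the results for the members was not tested.

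By the correlation of log2 group means over the 8 groups, among 16730 other genes, the patterns most like the H3K27ac of Il1a were those of Ptpn9 (r = 0.995), Dubr (0.995) and Copa (0.993), and most like Il1b those of Pde4b (0.990), Sirt6 (0.990) and Atg9a (0.989). For Il1rn they were Sema4c (0.999), Alpk2 (0.998) and Tnfaip3 (0.997), and for Il18 Xrn2 (0.992), Trim21 (0.984) and Clint1 (0.983). For p300, among 15945 genes, they were Itga5 (0.995), Mir6985 (0.994) and Itpkb (0.990) for Il1a, and Il10 (0.994), Slc9a8 (0.992) and Rmi2 (0.991) for Il1b. Il1rn had Pgs1 (0.993), 4831407H17Rik (0.993) and Jazf1 (0.991), and Il18 had Npy6r (0.977), Ikzf1 (0.977) and Dennd4b (0.974). The 8 points share libraries and depth between genes, and the values describe likeness only.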

How the data were processed

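The deposited tables hold signal per ATAC region: tags in windows of 1000 bp (H3K27ac) or 200 bp (p300), scaled by the authors to 10000000 tags with HOMER on mm10, per the file headers. The submitters' processing notes also name Bowtie2 and DESeq2. Every value was a whole number of tags times 1 factor per library (100% within 0.05 tags), so whole tags were recovered. 13 columns matched no sample and were not used. The ATAC peak list has a score column, deposited without a definition by the authors, which was not used.

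Recovered tags were divided by each library's total over the tested regions times its TMM factor, and put on 1 common scale per mark. On this scale, log2(value + 1) was tested with limma 3.58.1 (trended, R 4.3.3) in 1 model over 8 groups after edgeR's filterByExpr. This left 7 residual degrees of freedom for H3K27ac and 6 for p300. Gene values are sums over all regions named for the gene within 100 kb, so tags in bases shared by H3K27ac windows count more than once. Alternatives included edgeR 4.0.16 and DESeq2 1.42.0 on the recovered tags, other scalings, filters, pseudocounts and region sets, and each library left out. On simulated data, the p300 comparison with the shallow 2 h vehicle library also called unchanged regions of few tags. A value against 1 to 3 tags has a 95% exact interval, and 3 tags stand in for 0; both cover counting error only, and tags without molecular identifiers are not independent molecules. Peaks were used at an overlap of at least 1 base, with at least 100 bases as a second threshold. The p65 peak list met few mm10 windows (1.58%, and 22.2% or more for the other lists), so its build was not settled and it was not used. Members, gene lists and printed regions were chosen with earlier results of these data known. Regions named are, per gene, the nearest, the 2 with most signal, and up to 4 called ones. Other regions, called ones beyond 4 included, were singled out after their values were seen.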

Additional observations from a re-analysis of the deposited data

How the results depend on the processing

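The counts of called members and the changes near 0 moved with the processing, whereas the H3K27ac call of Il1b at 2 h of LPS held in all 14 alternatives and all 4 fits that left out a library. Replicate numbers gave at most 2 pairs per comparison, and 1 where the vehicle was a single library. The main fit has no block, although same-numbered libraries deviated together (correlation 0.445 to 0.670 over 21 group pairs for H3K27ac and 0.193 to 0.378 over 15 for p300). The block raised several counts, as listed below, so a missing call in the main fit does not show an absence of change. The authors' scaling shifted the median log2 change against vehicle by -0.98 to -0.68 for p300 and by -0.13 to 0.11 for H3K27ac, and totals without TMM by -0.28 to -0.18 and by -0.09 to 0.15. The minimum of 20 tags, edgeR with the block and the pooled vehicle were chosen after seeing the data. Values in parentheses are those of the main fit, and causes were not tested. Counts of called members below are given without the share of all regions or genes called in the same setting. The single vehicle libraries of p300, one with 3.20 M tags, limit all p300 comparisons with PBS, and a fit without them could not be made. With the authors' scaling, counts of called members moved to H3K27ac LPS over PBS at 6 h 0 regions (main 1), p300 LPS over PBS at 6 h 0 regions (main 2) and 0 genes (main 1), p300 LPS over PBS at 2 h 0 regions (main 9) and 0 genes (main 2). Under the authors' scaling, the sign turned for H3K27ac LPS plus 3'SL over LPS at 2 h Il1b 0.041 (-0.041), p300 LPS over PBS at 6 h Il1b -0.026 (1.01), p300 3'SL over PBS at 2 h Il1b -0.22 (0.54), p300 3'SL over PBS at 6 h Il18 -0.50 (0.22), Il1b -0.64 (0.13), Il1rn -0.0050 (0.76), p300 LPS plus 3'SL over LPS at 6 h Il1a 0.064 (-0.30), Il1b 0.20 (-0.17). With totals of tested regions and no TMM, counts of called members moved to H3K27ac LPS over PBS at 2 h 5 regions (main 8), H3K27ac LPS over PBS at 6 h 2 regions (main 1) and 1 gene (main 0), p300 LPS over PBS at 2 h 1 gene (main 2). Under totals of tested regions and no TMM, the sign turned for H3K27ac 3'SL over PBS at 6 h Il1b 0.12 (-0.037), p300 3'SL over PBS at 6 h Il1b -0.10 (0.13). With no filter on low values, counts of called members moved to H3K27ac LPS over PBS at 6 h 0 regions (main 1). With a pseudocount of 5, counts of called members moved to H3K27ac LPS over PBS at 6 h 3 regions (main 1). With the replicate number as a block, counts of called members moved to H3K27ac LPS over PBS at 2 h 16 regions (main 8), H3K27ac LPS over PBS at 6 h 15 regions (main 1) and 3 genes (main 0), p300 LPS over PBS at 6 h 9 regions (main 2) and 2 genes (main 1), p300 3'SL over PBS at 2 h 1 region (main 0), p300 LPS at 6 h over LPS at 2 h 1 region (main 0) and 1 gene (main 0). Under the replicate number as a block, the sign turned for H3K27ac LPS over PBS at 6 h Il18 0.031 (-0.26), H3K27ac 3'SL over PBS at 6 h Il1b 0.086 (-0.037), p300 LPS over PBS at 6 h Il18 0.26 (-0.025). With edgeR's quasi-likelihood test, counts of called members moved to H3K27ac LPS over PBS at 6 h 0 regions (main 1), p300 LPS over PBS at 6 h 0 regions (main 2) and 0 genes (main 1), p300 LPS over PBS at 2 h 0 regions (main 9) and 1 gene (main 2). Under edgeR's quasi-likelihood test, the sign turned for H3K27ac 3'SL over PBS at 6 h Il1b 0.062 (-0.037), H3K27ac LPS plus 3'SL over LPS at 6 h Il18 0.053 (-0.024), p300 LPS over PBS at 6 h Il18 0.17 (-0.025), p300 LPS plus 3'SL over LPS at 6 h Il18 -0.013 (0.18). With DESeq2, counts of called members moved to H3K27ac LPS over PBS at 2 h 13 regions (main 8), H3K27ac LPS over PBS at 6 h 11 regions (main 1) and 3 genes (main 0), p300 LPS over PBS at 6 h 7 regions (main 2) and 2 genes (main 1). Under DESeq2, the sign turned for H3K27ac 3'SL over PBS at 6 h Il1b 0.093 (-0.037). With regions within 10 kb alone, counts of called members moved to H3K27ac LPS over PBS at 2 h 1 gene (main 2), p300 LPS over PBS at 6 h 0 genes (main 1). Under regions within 10 kb alone, the sign turned for H3K27ac LPS at 6 h over LPS at 2 h Il1rn -0.036 (0.0079), p300 LPS at 6 h over LPS at 2 h Il1a 0.13 (-1.18), p300 LPS plus 3'SL over LPS at 2 h Il1a 0.12 (-0.10), p300 LPS plus 3'SL over LPS at 6 h Il1b 0.051 (-0.17). In the table of merged transcription factor peaks, counts of called members moved to H3K27ac LPS over PBS at 6 h 1 gene (main 0), p300 LPS over PBS at 6 h 0 genes (main 1), p300 LPS over PBS at 2 h 1 gene (main 2). Under the table of merged transcription factor peaks, the sign turned for H3K27ac 3'SL over PBS at 2 h Il1rn 0.020 (-0.15), H3K27ac 3'SL over PBS at 6 h Il1b 0.038 (-0.037), H3K27ac LPS at 6 h over LPS at 2 h Il1rn -0.23 (0.0079), p300 LPS over PBS at 6 h Il18 0.17 (-0.025), p300 LPS plus 3'SL over LPS at 2 h Il1a 0.016 (-0.10). In the table of merged H3K27ac peaks, the sign turned for H3K27ac 3'SL over PBS at 2 h Il1rn 0.020 (-0.15), H3K27ac 3'SL over PBS at 6 h Il1b 0.14 (-0.037), H3K27ac LPS plus 3'SL over LPS at 2 h Il1b 0.046 (-0.041), H3K27ac LPS at 6 h over LPS at 2 h Il1rn -0.027 (0.0079). With a minimum mean of 20 tags, counts of called members moved to H3K27ac LPS over PBS at 6 h 2 regions (main 1) and 1 gene (main 0), p300 LPS over PBS at 2 h 1 gene (main 2). Under a minimum mean of 20 tags, the sign turned for H3K27ac 3'SL over PBS at 6 h Il1b 0.085 (-0.037), p300 3'SL over PBS at 6 h Il1b -0.018 (0.13). With edgeR and the replicate block, counts of called members moved to H3K27ac LPS over PBS at 2 h 16 regions (main 8), H3K27ac LPS over PBS at 6 h 14 regions (main 1) and 3 genes (main 0), p300 LPS over PBS at 6 h 9 regions (main 2) and 2 genes (main 1), p300 LPS at 6 h over LPS at 2 h 1 region (main 0) and 1 gene (main 0). Under edgeR and the replicate block, the sign turned for H3K27ac LPS over PBS at 6 h Il18 0.023 (-0.26), H3K27ac 3'SL over PBS at 6 h Il1b 0.13 (-0.037), H3K27ac LPS plus 3'SL over LPS at 6 h Il18 0.00099 (-0.024), p300 LPS over PBS at 6 h Il18 0.38 (-0.025). With all vehicle libraries as 1 group, counts of called members moved to H3K27ac LPS over PBS at 2 h 13 regions (main 8), H3K27ac LPS over PBS at 6 h 13 regions (main 1) and 3 genes (main 0), p300 LPS over PBS at 6 h 8 regions (main 2) and 2 genes (main 1). Under all vehicle libraries as 1 group, the sign turned for H3K27ac LPS over PBS at 6 h Il18 0.25 (-0.26), H3K27ac 3'SL over PBS at 2 h Il1rn 0.16 (-0.15), H3K27ac 3'SL over PBS at 6 h Il18 0.094 (-0.42), Il1b 0.34 (-0.037), Il1rn -0.10 (0.36), p300 3'SL over PBS at 6 h Il18 -0.043 (0.22). Leaving out 1 library at a time, counts of called members ran as follows: H3K27ac LPS over PBS at 2 h 1 to 2 genes (main 2), H3K27ac LPS over PBS at 2 h 2 to 9 regions (main 8), H3K27ac LPS over PBS at 6 h 0 regions (main 1), p300 LPS over PBS at 2 h 1 gene (main 2), p300 LPS over PBS at 2 h 2 to 5 regions (main 9), p300 LPS over PBS at 6 h 0 genes (main 1), p300 LPS over PBS at 6 h 0 regions (main 2). Log2 changes whose sign turned on leaving out a library ranged as follows: H3K27ac 3'SL over PBS at 2 h Il18 -0.57 to 0.78, H3K27ac 3'SL over PBS at 2 h Il1rn -1.06 to 0.76, H3K27ac 3'SL over PBS at 6 h Il18 -1.17 to 0.32, H3K27ac 3'SL over PBS at 6 h Il1b -0.60 to 0.52, H3K27ac 3'SL over PBS at 6 h Il1rn -0.22 to 0.94, H3K27ac LPS plus 3'SL over LPS at 2 h Il1a -0.89 to 0.35, H3K27ac LPS plus 3'SL over LPS at 2 h Il1b -0.10 to 0.0080, H3K27ac LPS plus 3'SL over LPS at 2 h Il1rn -0.39 to 0.19, H3K27ac LPS plus 3'SL over LPS at 6 h Il18 -0.53 to 0.47, H3K27ac LPS at 6 h over LPS at 2 h Il1rn -0.35 to 0.34, p300 3'SL over PBS at 6 h Il18 -0.31 to 0.75, p300 3'SL over PBS at 6 h Il1b -0.55 to 0.81, p300 LPS plus 3'SL over LPS at 2 h Il1a -0.46 to 0.26, p300 LPS plus 3'SL over LPS at 2 h Il1rn -0.051 to 0.50, p300 LPS plus 3'SL over LPS at 6 h Il18 -0.48 to 0.83, p300 LPS over PBS at 6 h Il18 -0.67 to 0.63.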
